A study of Mus musculus with 7 samples.

Results

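Long noncoding RNAs expressed in mouse kidney were examined in whole renal tissue of control, diabetic and SGLT2 inhibitor-treated diabetic mice. The transcripts were the rows typed lincRNA, lncRNA or antisense by their first type label whose mean deposited log2 value over all 7 libraries was at least 1. This rule took 215 of 17537 listed genes, 108 lincRNA and 107 antisense, out of 1173 lincRNA and antisense rows in all. The members were thus selected on measured values, the deposited log2 levels. Because these were averaged over all libraries, the levels below are a description. The differences between groups were not used directly, but a transcript near the threshold could pass through the libraries in which it was high, and 15 of the 215 had a mean log2 under 1 over the 5 libraries other than control replicates 8 and 9. Just inside the threshold were Gm29012 at a mean log2 of 1.004, 1700018L02Rik at 1.006 and Snhg20 at 1.007, and just outside were 6330418K02Rik at 0.984, Mkln1os at 0.981 and Gm15706 at 0.955.

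The mice were C57BL/6, aged 8 to 10 weeks at the start, and male per the labels, although the study's methods speak of both sexes. Both diabetic groups had been made hyperglycemic by injecting streptozotocin (60 mg/kg, given on 5 days), which destroys the cells that make insulin. Controls (C, replicates 2, 8 and 9) received sodium citrate instead and were not diabetic. The DM-22 mice (replicates 1 and 2) stayed hyperglycemic for 22 weeks, and the DM+SGLT2i mice (replicates 1 and 2) were given dapagliflozin, which lowers blood glucose by blocking renal glucose reabsorption, at 25 mg/kg for the last 6 weeks, after 16 weeks of hyperglycemia. Each library came from 1 mouse, so group sizes were 3, 2 and 2. The comparisons asked which transcripts differ in diabetic kidneys and which of these differ again once glucose is lowered.

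Long noncoding RNAs are transcribed and mostly spliced like messenger RNAs but do not encode proteins. Some act in the nucleus, where Malat1 is retained in splicing-factor speckles and Neat1 builds the paraspeckle, others work in the cytoplasm by binding proteins or microRNAs, and many antisense transcripts lie across from a protein-coding gene whose expression they may accompany or modulate. Host transcripts of small nucleolar RNAs carry these RNAs in their introns. Both named markers of the class, Malat1 and Neat1, were among the 215 transcripts, at rank 6 and rank 10 by level. Several well-known long noncoding RNAs were not, either because they are typed as processed transcripts (Gas5, Firre, Dleu2 and Zfas1, at mean log2 values of 4.99, 3.63, 3.50 and 2.73) or because they lay below the threshold (Meg3 at -1.75, Kcnq1ot1 at 0.35 and Jpx at 0.49).

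The 7 libraries held 46456125 to 56541594 reads on listed genes, of which 0.492 to 0.901% fell on these transcripts. All 15 markers of kidney segments on the list used were present, with summed levels of 14443 to 37335 CPM. Here CPM are reads scaled to the library total and adjusted by the TMM scaling factor of each library, as in the deposited values. The segments were not evenly represented. The proximal tubule gene Slc34a1 held 2841, 8363 and 8096 CPM in control replicates 2, 8 and 9, 2937 and 9452 CPM in DM-22 and 5565 and 5233 CPM in DM+SGLT2i, and the loop gene Slc12a1 2335, 922 and 876 CPM, 5580 and 602 CPM, and 1465 and 2549 CPM. Control replicate 2 stood apart from the other controls. Its 8 tubular injury markers (such as Havcr1 and Lcn2) summed to 5282 CPM, against 771 and 670 CPM in control replicates 8 and 9, 1976 and 1353 CPM in the DM-22 libraries and 2328 and 2455 CPM in the DM+SGLT2i libraries. Spp1 made up most of these sums, with 4898, 638 and 542 CPM in control replicates 2, 8 and 9, where Havcr1 held 29.5, 1.98 and 1.84 CPM and Lcn2 74.9, 0.926 and 0.983 CPM. In control replicate 2 the 9 macrophage markers summed to 598 CPM, against 159 and 160 CPM in the other controls, 323 and 184 CPM in DM-22 and 307 and 358 CPM in DM+SGLT2i. The part of these segments and cell populations in the results was not tested, and every group comparison was therefore made with all 3 controls and again with control replicates 8 and 9 only.

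The typical long noncoding RNA was scarce. The median of the mean levels was 5.00 CPM, against 24.9 CPM for the 13312 protein-coding genes tested, and 108 of the 215 transcripts lay under 5 CPM, 54 reached 10 CPM and 8 reached 100 CPM. The 10 highest held 71.8% of the 6206 CPM that the transcripts summed to. Each of the 215 was detected in all 7 libraries and all passed the filter on low values (at least 1 CPM in at least 2 libraries).

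**Figure D1:**
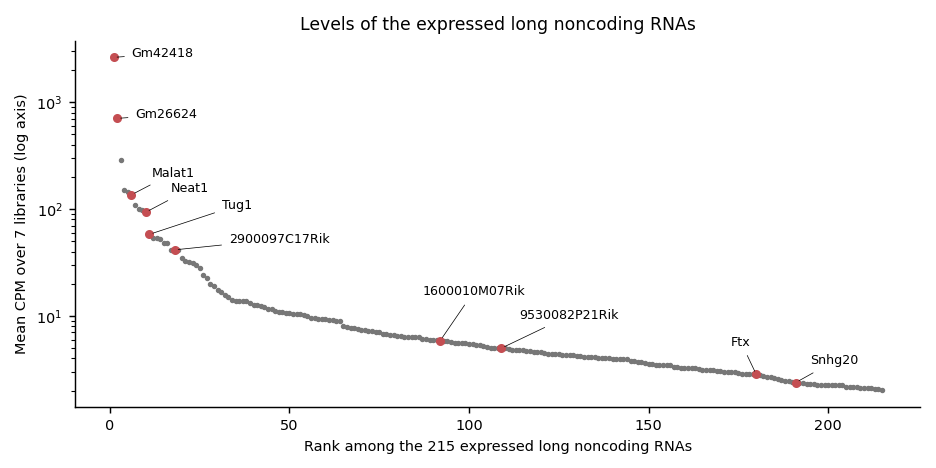
Mean level in CPM over 7 libraries (log axis) against rank for the 215 long noncoding RNAs, each point a transcript, with named ones in red. Levels run from 2626 CPM for Gm42418 to 2.03 CPM, and all but 54 lie under 10 CPM.

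The highest level belonged to Gm42418 (chr17:39846958-39848788, GRCm38), a transcript at a locus carrying ribosomal RNA sequence, which alone held 24.2 to 51.9% of the reads on these transcripts. Its level was 2506, 3710 and 4640 CPM in control replicates 2, 8 and 9, 1901 and 1336 CPM in the DM-22 libraries and 1765 and 2521 CPM in the DM+SGLT2i libraries. Both DM-22 libraries lay below all controls, with a log2 difference of -1.14 (SE 0.39, limma adjusted p = 0.804). Its neighbor Gm26917, from the same locus, held 42.8 to 71.9 CPM. Per kilobase of exon Gm42418 was also highest, at 1434 CPM/kb, followed by Gm10076 at 285 CPM/kb and Gm26624 at 187 CPM/kb. Gm10076 shared 84.2% of its 31-base words with the ribosomal protein gene Rpl41, so its reads could belong to either. Gm26624 varied without following the groups, at 355, 688 and 738 CPM in controls, 550 and 1416 CPM in DM-22 and 548 and 643 CPM in DM+SGLT2i. Others among the 10 highest were 9330111N05Rik, across from Adgrv1, at 188 to 414 CPM over the libraries, D630029K05Rik at 87.4 to 200 CPM and Tmem250-ps at 91.8 to 117 CPM, with log2 differences of DM-22 from C of 0.28 (SE 0.30), 0.00 (SE 0.35) and 0.15 (SE 0.14), all within the spread between libraries. Malat1 stood at 19.5 CPM/kb and Neat1, which is longer, at 4.5 CPM/kb.

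The transcripts had a median exon length of 2121 bases in 3 exon blocks, and 24 had 1 block. Of the 215, 117 overlapped a protein-coding gene on the opposite strand, 92 of them within exons, and 36 started within 1000 bases of a protein-coding start pointing the other way. The library kit keeps the strand, but whether the counting used it is not given in the sources used here, so reads of an antisense transcript and its sense partner cannot be told apart with certainty. Another source of doubt is sequence shared with other genes. Of the 215, 9 shared over 50% of their 31-base words with another gene, among them Gm27177, Gm11008, Gm7292 and Gm26573, while 81 shared none.

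Between libraries the long noncoding RNAs varied more than genes at large. The median log2 range over the 7 libraries was 0.91, against 0.72 for all 13976 tested genes, and 43.7% of the transcripts (94) spanned more than 1 log2 unit, against 31.3% of tested genes. The widest were Neat1 (3.79), Malat1 (3.57), Gm15883 (3.54), Gm6999 (3.04) and Hnf4aos (2.70). At the other end, 1300002E11Rik moved by 0.17, between 10.7 and 12.1 CPM, and Brip1os by 0.26, between 48.7 and 58.3 CPM. Level alone can produce part of such a contrast in spread, and that part was not tested.

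With all 3 controls, limma called no transcript in any comparison at a Benjamini-Hochberg adjusted p under 0.05, and no gene at large (0% of 13976). In bulk tissue, fewer cells of a type and less RNA per cell cannot be told apart, which holds for every difference below. At an unadjusted p under 0.05, 16 of 215 transcripts (7.44%) were lower in DM-22 than in C, against 3.28% of all tested genes, and 0 were higher, against 1.19%. In the voom alternative the adjusted count was also 0, with 13 lower (6.05%, 2.50% of tested genes by voom) and 1 higher (0.465%, 1.19%) at an unadjusted p under 0.05. In DM+SGLT2i against C, 1 was lower (0.465%, background 0.415%) and 0 were higher (background 0.665%), and voom gave the same counts (0.365% and 0.694% of tested genes by voom). With both diabetic groups pooled against C, 9 were lower (4.19%, background 1.38%) and 0 higher (background 0.658%), and again voom gave the same counts (1.25% and 0.601% of tested genes). The smallest adjusted p among the transcripts was 0.804, 1 and 0.988 in these comparisons.

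The same direction showed over the whole class. In DM-22 the log2 difference from C was below 0 for 60.0% of the transcripts, against 49.3% of tested genes, with medians of -0.08 and 0.00. In DM+SGLT2i it was below 0 for 74.4% of the transcripts, against 52.8% of tested genes, with medians of -0.16 and -0.01. These comparisons share their controls. In 6 transcripts (2.79%, background 1.38%) all 4 diabetic libraries lay below all 3 controls, and in 0 (background 1.31%) they lay above. The 6 were 1600010M07Rik, described below, and 5 with smaller differences. BC002059 held 4.01, 4.69 and 6.09 CPM in controls and 2.83 to 3.79 CPM in the diabetic libraries (log2 difference of both pooled -0.48, SE 0.19, limma unadjusted p = 0.0443). Zfp335os, which overlaps exons of the zinc finger gene Zfp335 on the opposite strand, held 2.25 to 3.25 CPM in controls and 1.48 to 2.19 CPM in diabetic mice (-0.52), and is a description only, since it passed the level rule only through control replicates 8 and 9. Tmem61 held 4.56 to 5.54 CPM against 3.42 to 3.96 CPM (-0.37, SE 0.16). In Gm26573 (8.59 to 9.57 CPM against 5.39 to 7.90 CPM) and 4930480K23Rik (4.51 to 4.72 CPM against 3.68 to 4.37 CPM) the gap between the groups was narrow, with differences of -0.37 (SE 0.17) and -0.14 (SE 0.15). Apart from BC002059 and 1600010M07Rik, the unadjusted p of these transcripts was above 0.05.

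Leaving out control replicate 2 widened the difference. Against control replicates 8 and 9, 55 transcripts were lower in DM-22 at an unadjusted p under 0.05 (25.6%, background 14.8%) and 5 higher (2.33%, background 10.4%). In DM+SGLT2i, 44 were lower (20.5%, background 9.14%) and 7 higher (3.26%, background 8.73%). With both diabetic groups pooled, 56 were lower (26.0%, background 14.5%) and 7 higher (3.26%, background 10.4%). The median log2 difference was -0.25 in DM-22, -0.26 in DM+SGLT2i and -0.23 in both pooled, against 0.01, -0.02 and 0.00 over all tested genes. After Benjamini-Hochberg adjustment limma called 0 transcripts in DM-22 (background 0.0143%), and 1 in DM+SGLT2i (background 0.122%) and in both pooled (background 0.200%), 1600010M07Rik each time. Counts over all 215 include transcripts that passed the level rule only through control replicates 8 and 9. Among the 132 of a mean log2 of at least 2, a limit chosen after the data had been seen, 38 were lower in DM-22 (28.8%, background 14.8%) and 30 in DM+SGLT2i (22.7%, background 9.14%) against these controls, and with all 3 controls 10 (7.58%, background 3.28%) and 1 (0.758%, background 0.415%). Long intergenic and antisense transcripts had similar medians in DM-22 against these controls, -0.24 over 108 and -0.25 over 107.

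**Figure D2:**
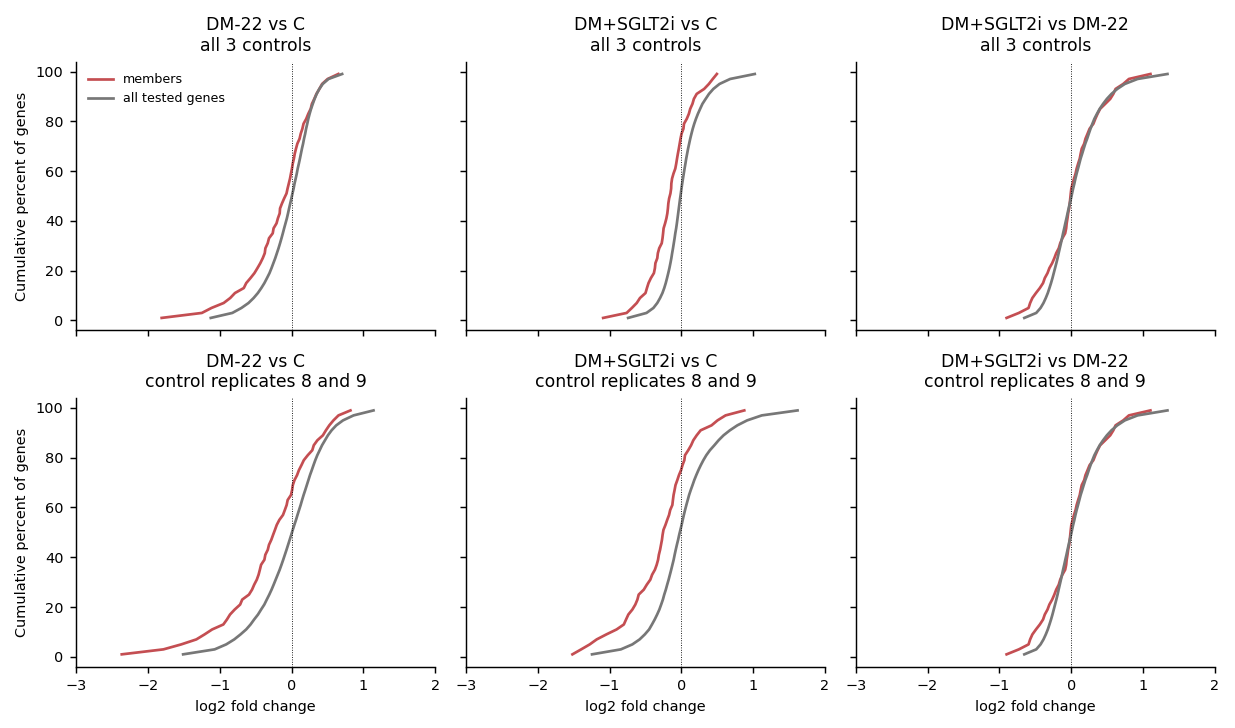
Cumulative percent of genes (y axis) at or below each log2 fold change (x axis), from the 1st to the 99th percentile, for the 215 long noncoding RNAs (red) and all 13976 tested genes (gray), with all 3 controls (top) and with control replicates 8 and 9 (bottom). In both comparisons with C the red curve lies left of the gray one over most of its length, but in DM-22 vs C with all 3 controls the curves meet at the upper end, at 0.39 each at the 93rd percentile. In DM+SGLT2i vs DM-22 the medians are -0.01 and 0.00, while the lower tail of the red curve lies further left, with a 5th percentile of -0.59 against -0.43 with all 3 controls.

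The shift set control replicates 8 and 9 apart from the other 5 libraries, control replicate 2 included. Relative to the mean of control replicates 8 and 9, the median transcript stood at -0.28 and -0.20 in the DM-22 libraries, -0.29 and -0.23 in the DM+SGLT2i libraries, and -0.30 in control replicate 2. Over all tested genes the same medians lay between -0.05 and 0.01. Both of these controls exceeded control replicate 2 in 142 transcripts (66.0%, 46.4% of tested genes) and DM-22 replicate 1 in 132 (61.4%, 45.2% of tested genes). Control replicate 9 was the highest library for 52 transcripts (24.2%, 15.2% of tested genes), control replicate 8 for 45 (20.9%, 16.4%) and control replicate 2 for 14 (6.51%, 16.4%). DM-22 replicates 1 and 2 were the highest for 41 (19.1%, 18.0%) and 36 (16.7%, 20.8%), and DM+SGLT2i replicates 1 and 2 for 22 (10.2%, 10.8%) and 5 (2.33%, 2.53%). The share of reads on the transcripts was 0.774% and 0.901% in control replicates 8 and 9, 0.572% in control replicate 2 and 0.492 to 0.569% in the diabetic libraries. With Gm42418 left out it was 0.408% and 0.433% in control replicates 8 and 9, 0.310% in control replicate 2, 0.318% and 0.373% in DM-22 and 0.333% and 0.322% in DM+SGLT2i.

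Malat1 (chr19:5795690-5802672, minus strand, GRCm38), which is retained in nuclear speckles, showed this contrast. Its level was 47.5, 292 and 390 CPM in control replicates 2, 8 and 9, 32.3 and 41.8 CPM in DM-22 and 111 and 38.3 CPM in DM+SGLT2i. Control replicates 8 and 9 were far above every other library, whereas control replicate 2 fell within the range of the diabetic libraries, so the groups overlapped for DM+SGLT2i but not for DM-22. The log2 difference of DM-22 from C was -2.24 (SE 0.92, limma unadjusted p = 0.0466, adjusted p = 0.804), and over the alternatives it ran from -3.18 to -1.67. Against control replicates 8 and 9 it was -3.18 (SE 0.48, adjusted p = 0.0826), and that of DM+SGLT2i was -2.36 (SE 0.48, adjusted p = 0.116). Treated and untreated diabetic mice differed by 0.82 (SE 1.01, adjusted p = 0.893), within the spread between libraries.

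The 3′ end of Malat1 is shown because this transcript ends without a canonical poly(A) tail although the libraries were poly(A)-selected. In its place 2 U-rich motifs are known to pair with a downstream A-rich tract in a stabilizing triple helix. Positions 6596 to 6745 of the 6983-base GENCODE M21 transcript are given as DNA letters, with the U-rich motifs (6606 to 6615 and 6646 to 6655) and the run of 12 A (6674 to 6685) in capitals.
Malat1 3′ tracts: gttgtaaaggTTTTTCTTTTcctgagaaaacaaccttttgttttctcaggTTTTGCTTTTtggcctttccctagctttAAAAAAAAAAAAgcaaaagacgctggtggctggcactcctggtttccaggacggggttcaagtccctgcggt

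Neat1 (chr19:5824708-5845478, minus strand), the scaffold of paraspeckles and a close neighbor of Malat1 on the chromosome, had 46.3, 165 and 237 CPM in controls, 38.3 and 16.6 CPM in DM-22 and 98.0 and 53.2 CPM in DM+SGLT2i. Both DM-22 libraries were below all controls, and both DM+SGLT2i libraries were above both DM-22 libraries and above control replicate 2. The log2 difference of DM-22 from C was -2.25 (SE 0.73, limma unadjusted p = 0.0189, adjusted p = 0.804), and -2.94 (SE 0.47, adjusted p = 0.0826) without control replicate 2. DM+SGLT2i differed from DM-22 by 1.50 (SE 0.80, unadjusted p = 0.105, adjusted p = 0.881). Over the alternatives this last difference ran from 0.91 to 2.08 and its adjusted p never went below 0.463.

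Other transcripts, those named here among them, followed Malat1 from library to library. Among those closest to Malat1 over the 7 libraries, the log2 level of 0610043K17Rik correlated with that of Malat1 at r = 0.998, that of 1110002L01Rik at 0.987, Ftx at 0.968 and A330035P11Rik at 0.966, while the median over all other members of the class was 0.397 and 64 transcripts had an r below 0. Closest to Neat1 were Gm17276 and Ino80dos (both 0.976), Gm13483 (0.973), D930016D06Rik (0.937) and 4930533I22Rik (0.922). Ino80dos, 4930533I22Rik and Ftx passed the level rule only through control replicates 8 and 9, in which Malat1 and Neat1 were high, so their likeness is partly set by that rule. Malat1 and Neat1 themselves correlated at 0.903. These values describe 7 points that share their depth and the split between control replicates 8 and 9 and the rest, and carry no test.

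**Figure D3:**
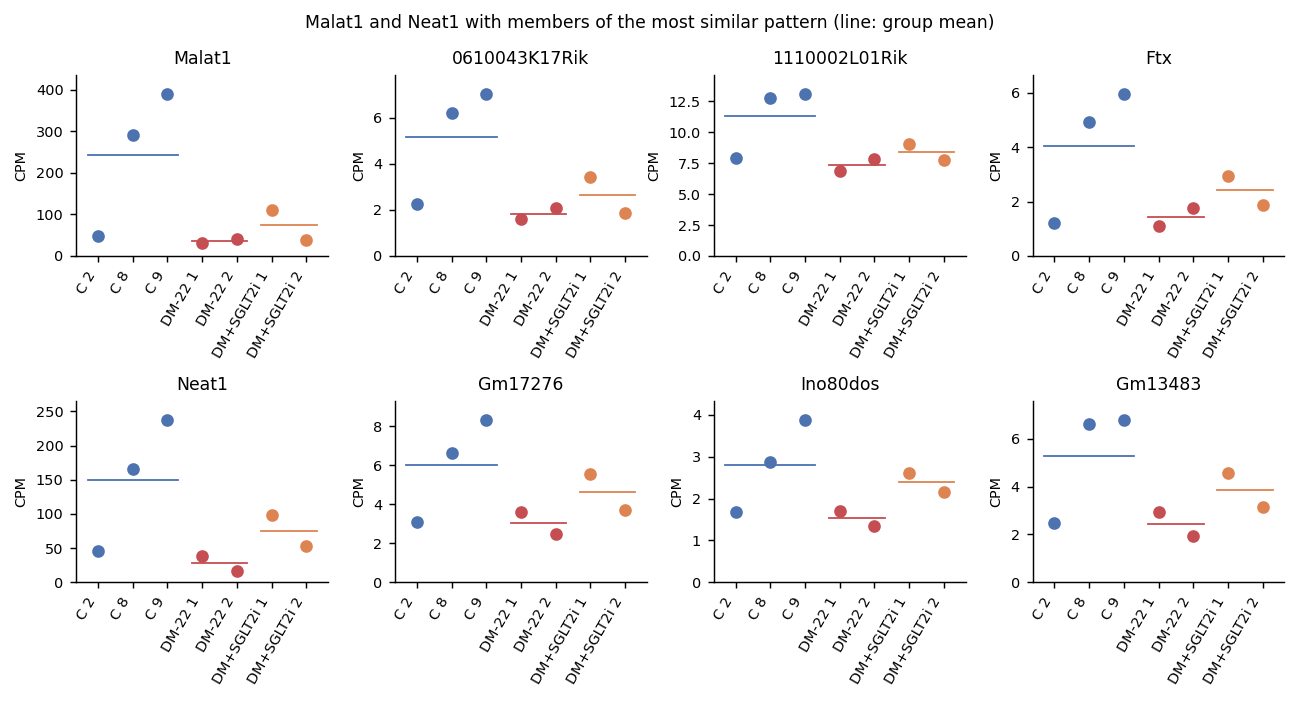
Level in CPM of Malat1, Neat1 and 3 transcripts of a similar pattern for each, by library, with points for libraries and lines for group means. In every panel control replicates 8 and 9 are the highest libraries, and control replicate 2 lies with the diabetic libraries.

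Messenger RNAs known to be held in the nucleus with detained introns (12 genes such as Clk1, Clk4 and Ogt, a list added after the data had been seen) were tabulated beside Malat1. Their summed level was 809, 1498 and 1839 CPM in controls, 808 and 896 CPM in DM-22 and 1110 and 924 CPM in DM+SGLT2i. Control replicates 8 and 9 again exceeded all other libraries. Against those controls 12 of 12 had an unadjusted p under 0.05 and were lower in DM-22 (background 14.8%), and 11 were lower in DM+SGLT2i (background 9.14%). With all 3 controls these counts were 3 (background 3.28%) and 0 (background 0.415%). The list was chosen with this pattern in view, so the counts are a description. The part of tubular injury, whose summed markers were highest in control replicate 2, in these levels was not tested.

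The transcript with the smallest adjusted p was 1600010M07Rik (chr7:109998376-110151202, minus strand), a spliced antisense transcript whose span lies across from the importin gene Ipo7 and from Wee1, which encodes an inhibitory kinase of the cell cycle. Its level was 5.33, 11.1 and 11.5 CPM in control replicates 2, 8 and 9, 3.26 and 3.51 CPM in DM-22 and 3.23 and 3.22 CPM in DM+SGLT2i. The 4 diabetic libraries lay close together and below all controls, and here control replicate 2 stood between. With all 3 controls the pooled diabetic groups differed from C by a log2 of -1.29 (SE 0.28, limma unadjusted p = 0.00298, adjusted p = 0.988). Against control replicates 8 and 9 the transcript was lower in DM-22 by -1.60 (SE 0.16, adjusted p = 0.0781), fell by 1.66 in DM+SGLT2i (SE 0.16, adjusted p = 0.0490) and fell by 1.63 in both pooled (SE 0.14, adjusted p = 0.0449). No other setting gave an adjusted p under 0.767, 1 or 0.913 in these 3 comparisons. DM+SGLT2i and DM-22 differed by -0.06 (SE 0.37, adjusted p = 0.983).

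The coding genes at this locus did not share the size of the difference. Ipo7 held 84.5 to 107 CPM over the libraries, with a log2 difference of 0.12 between DM-22 and C (unadjusted p = 0.422). Wee1 held 14.6, 15.5 and 14.3 CPM in controls and 11.4 to 12.5 CPM in the 4 diabetic libraries, so that all diabetic libraries lay below all controls, with a log2 difference of -0.30 (limma unadjusted p = 0.0703). The level of 1600010M07Rik correlated over the 7 libraries at r = 0.87 with Wee1 and -0.21 with Ipo7.

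A different order appeared in 9530082P21Rik (chr17:23743234-23754065, plus strand), whose exons overlap those of Flywch1 on the opposite strand over 1071 bases. It stood at 5.81, 5.75 and 7.01 CPM in controls, 2.59 and 2.57 CPM in DM-22 and 6.11 and 5.09 CPM in DM+SGLT2i. Both DM-22 libraries were below every other library, and the DM+SGLT2i libraries were at or near the level of the controls, control replicate 2 included. DM-22 differed from C by a log2 of -1.11 (SE 0.19, limma unadjusted p = 8.42e-04, adjusted p = 0.804), and DM+SGLT2i differed from DM-22 by 0.98 (SE 0.21, unadjusted p = 0.00275, adjusted p = 0.881). Over the alternatives, each library left out in turn included, the first difference ran from -1.25 to -0.83 and the second from 0.73 to 1.11. The limma adjusted p was at least 0.0826 and 0.452. This transcript was named because its groups did not overlap, and it had the smallest unadjusted p of the 215 in both comparisons. The alternatives reuse the same libraries and are therefore a description. Flywch1 moved the other way in part, at 34.6, 43.4 and 43.6 CPM in controls, 44.8 and 51.2 CPM in DM-22 and 44.4 and 40.1 CPM in DM+SGLT2i (r = -0.55 over 7 libraries, log2 difference of DM-22 from C 0.25, unadjusted p = 0.166).

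**Figure D4:**
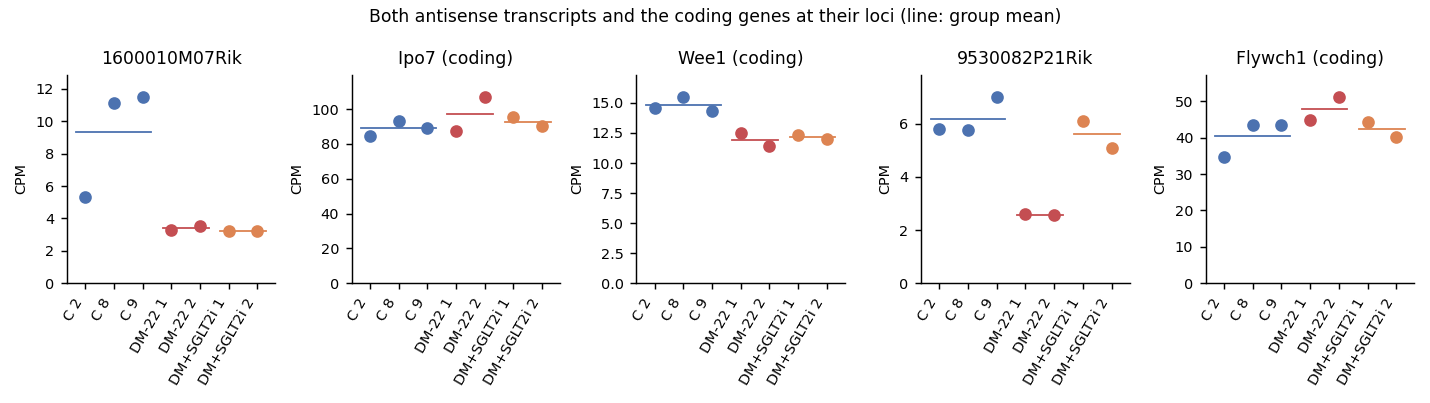
Level in CPM by library of 1600010M07Rik and 9530082P21Rik and of the coding genes at their loci, with points for libraries and lines for group means. The diabetic libraries hold 1600010M07Rik at 3.22 to 3.51 CPM, and 9530082P21Rik is low only in the DM-22 libraries, at 2.57 and 2.59 CPM.

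The first 120 bases of the longest GENCODE M21 transcript of each are given so that both RNAs can be found by sequence (1204 and 3162 bases in full, nothing capitalized).
1600010M07Rik: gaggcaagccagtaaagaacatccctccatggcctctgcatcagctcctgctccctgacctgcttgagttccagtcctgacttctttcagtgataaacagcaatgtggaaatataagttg
9530082P21Rik: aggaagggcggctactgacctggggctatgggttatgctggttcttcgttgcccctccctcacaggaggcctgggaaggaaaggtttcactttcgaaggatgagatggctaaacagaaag

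Lowering of glucose was read from DM+SGLT2i against DM-22. With all 3 controls in the fit, limma called 0 transcripts after adjustment (background 0%), and 7 were higher (3.26%, background 2.25%) and 7 lower (3.26%, background 1.66%) at an unadjusted p under 0.05. Voom gave 0 after adjustment and 6 in each direction (2.79%, against 2.10% of tested genes higher and 1.71% lower by voom). Without control replicate 2, which enters this comparison only through the shared spread, the adjusted count was 0 (background 0%) with 10 higher (4.65%, background 6.86%) and 14 lower (6.51%, background 3.89%) at an unadjusted p under 0.05. Without DM+SGLT2i replicate 1 the counts were 2 (0.930%) and 0, against 0.315% and 0.0716% of tested genes in that fit, and 1 of the 14 transcripts counted with all libraries was among them. That library also held 436 CPM of adipose markers against 33.5 to 78.9 CPM elsewhere, and 146 CPM of urothelial markers against 2.36 to 61.8 CPM. The part of these tissues in the counts was not tested.

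Several transcripts resembled 9530082P21Rik in being lower in DM-22 and closer to control in DM+SGLT2i. They were named by a rule on these values, which required groups without overlap, DM-22 below C or DM+SGLT2i above DM-22. Both differences use the same DM-22 libraries, so low values in those alone would set both. The likeness is therefore a description. AU020206 stood at 10.4, 12.2 and 13.6 CPM in controls, 6.10 and 7.40 CPM in DM-22 and 14.9 and 9.52 CPM in DM+SGLT2i. Its log2 difference was -0.79 for DM-22 against C (SE 0.24) and 0.78 for DM+SGLT2i against DM-22 (SE 0.26, limma unadjusted p = 0.0213, adjusted p = 0.881). In 2610035D17Rik the levels were 8.36, 9.90 and 10.1 CPM, 6.50 and 7.15 CPM, and 10.8 and 9.79 CPM in the same order, with differences of -0.44 and 0.56. Both DM-22 libraries were the lowest in each. AI838599 (differences of -1.27 and 1.22), Gm15848 (-1.12 and 1.08) and Gm16685 (-0.84 and 0.77), an antisense transcript overlapping Il7, the gene of a lymphocyte growth factor, were likewise lowest in DM-22, with 5.11, 5.85 and 4.05 CPM in DM+SGLT2i replicate 1 but 3.16, 3.97 and 2.62 CPM in replicate 2, against means of 4.32, 5.10 and 3.47 CPM in C. In AU020206 too the treated level was higher in replicate 1, the library with the adipose and urothelial markers, and over the alternatives the differences from DM-22 went as low as 0.47 for AU020206, 0.48 for 2610035D17Rik, 0.80 for AI838599 and 0.74 for Gm15848.

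In the other direction, Gm15889 stood at 9.13 and 5.18 CPM in DM-22, 3.19 and 3.74 CPM in DM+SGLT2i and 3.64 to 4.87 CPM in controls. The log2 difference of DM+SGLT2i from DM-22 was -0.90 (SE 0.30, limma unadjusted p = 0.0219, adjusted p = 0.881). 2810001G20Rik and 2010320M18Rik, which start opposite Cox10, a heme A synthesis gene, and Pik3r2, a phosphoinositide 3-kinase subunit, differed by -0.72 and -0.54. Gm15860, opposite Bcl7a, differed by -0.88 and 1810044D09Rik by -0.58. Over the alternatives the difference of Gm15889 ran from -1.28 to -0.52 and that of Gm15860 from -1.34 to -0.43. D130020L05Rik, across from the phosphatase subunit gene Ppp4r3a, held 5.85 and 5.32 CPM in DM-22, 3.37 and 3.81 CPM in DM+SGLT2i and 3.34 to 5.17 CPM in controls. Treated and untreated mice differed by -0.57 (SE 0.25, limma adjusted p = 0.881), and with an SE of 0.18 (limma adjusted p = 0.463) without control replicate 2. The rule that named these transcripts required both DM+SGLT2i libraries to lie below both DM-22 libraries.

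Of the long noncoding RNAs lower in DM-22 with all 3 controls, D930016D06Rik had the largest difference after Malat1 and Neat1 among those named here, with 4.82, 14.4 and 15.7 CPM in controls, 2.21 and 2.73 CPM in DM-22 and 8.10 and 4.23 CPM in DM+SGLT2i. The log2 difference was -1.87 (SE 0.53, limma unadjusted p = 0.0102, adjusted p = 0.804). Gm26561, the fourth by level, held 139, 221 and 209 CPM in controls, 118 and 94.6 CPM in DM-22 and 112 and 159 CPM in DM+SGLT2i, a difference of -0.81 for DM-22 (SE 0.26, unadjusted p = 0.0194). In both transcripts the DM-22 libraries lay below all controls.

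Other transcripts were low in every library except control replicates 8 and 9. Gt(ROSA)26Sor, the transcript of the Rosa26 locus used for knock-ins because it is expressed widely, held 4.38, 8.76 and 15.6 CPM in controls and 3.76 to 5.19 CPM in the diabetic libraries. 0610043K17Rik, the transcript most like Malat1, held 2.25, 6.19 and 7.03 CPM in controls, 1.60 and 2.06 CPM in DM-22 and 3.41 and 1.88 CPM in DM+SGLT2i. In both, control replicate 2 lay among the diabetic libraries. The log2 differences of DM-22 from control replicates 8 and 9 were -1.33 (SE 0.30, limma adjusted p = 0.0955) and -1.61 (SE 0.29, adjusted p = 0.0826).

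Gm10804, which lies across from the tetraspanin gene Cd82, had 26.2, 78.5 and 76.7 CPM in controls, 33.8 and 51.4 CPM in DM-22 and 36.9 and 33.2 CPM in DM+SGLT2i. Cd82 ran against it, at 206, 76.9 and 76.2 CPM, 392 and 85.5 CPM, and 105 and 169 CPM (r = -0.77 over 7 libraries). Again control replicate 2 was the lowest library of the transcript. Its log2 difference of DM+SGLT2i from C was -0.62 (SE 0.49), and -1.14 (SE 0.21, limma adjusted p = 0.101) without control replicate 2.

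0610040F04Rik, antisense to exons of Bhlhe40, a transcriptional repressor linked to the clock, had 9.82 CPM in control replicate 2 and 8.97 to 12.3 CPM in the diabetic libraries, and DM-22 differed from the higher control replicates 8 and 9 by -1.07 (SE 0.17, adjusted p = 0.0826). Gm15638 had 14.4, 29.6 and 26.7 CPM, 20.7 and 19.6 CPM, and 12.9 and 14.5 CPM. In this transcript the DM+SGLT2i libraries and control replicate 2 were lowest and DM-22 lay between, and DM+SGLT2i differed from DM-22 by -0.54 (SE 0.33, limma unadjusted p = 0.151) and from control replicates 8 and 9 by -1.01 (SE 0.13, adjusted p = 0.0724). Gm15883, opposite the cytochrome P450 gene Cyp2f2, spanned the range from 1.36 CPM in control replicate 2 to 20.4 and 21.1 CPM in control replicates 8 and 9, with 3.49 and 16.4 CPM in DM-22 and 6.97 and 6.83 CPM in DM+SGLT2i. The controls and the DM-22 libraries each spread widely and overlapped, while both DM+SGLT2i libraries lay close together between them (log2 difference of DM-22 from C -0.20, SE 1.16). Gm6999 also varied widely among the controls, at 1.78, 12.8 and 18.2 CPM in controls, 2.54 and 6.34 CPM in DM-22 and 7.06 and 4.50 CPM in DM+SGLT2i.

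Transcripts higher in the diabetic groups were few. With all libraries 0 were counted against C, and the counts above against control replicates 8 and 9 were 5 to 7, while leaving out DM-22 replicate 2 in place of a control gave 9 in DM-22 (4.19%, against 3.43% of tested genes in that fit). Gm11695, which overlaps the exons of the transporter gene Slc16a5 on the opposite strand, had 13.0, 6.00 and 4.64 CPM in controls, 9.99 and 11.4 CPM in DM-22 and 9.75 and 11.3 CPM in DM+SGLT2i. All diabetic libraries were above control replicates 8 and 9, and control replicate 2 was the highest library of all. Against the other controls both diabetic groups pooled differed by 0.94 (SE 0.16, limma adjusted p = 0.0703), while with all 3 controls the difference was 0.53 (SE 0.33, adjusted p = 0.988). Slc16a5 followed it over the libraries at r = 0.88, with 39.3, 19.5 and 21.2 CPM in controls and 28.2 to 44.0 CPM in diabetic mice. Others higher in the same way were Gm13855, C030037D09Rik, Gm53 (near Hoxb9), 1700120G11Rik and 1700052K11Rik, with pooled differences of 0.87, 0.66, 0.53, 0.57 and 0.48 without control replicate 2, and of 0.46, 0.43, 0.35, 0.38 and 0.33 with all 3 controls, where the groups overlapped. Gm9750, across from the asparaginase gene Asrgl1, held 50.7, 32.1 and 35.0 CPM in controls, 44.4 and 50.1 CPM in DM-22 and 32.8 and 42.7 CPM in DM+SGLT2i. It differed in DM-22 by 0.49 (SE 0.16, limma adjusted p = 0.150) without control replicate 2, its highest library, and by 0.29 (SE 0.23) with it.

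Of the 24 host transcripts of small nucleolar RNAs on the list used, 15 were listed in the data and 5 were among the 215 transcripts. Snhg20 held 1.70, 4.63 and 5.00 CPM in controls, 1.06 and 1.04 CPM in DM-22 and 1.74 and 1.48 CPM in DM+SGLT2i. It passed the level rule only through control replicates 8 and 9, so these levels are a description. Snhg12 held 4.21, 8.97 and 11.9 CPM in controls and 4.64 to 5.20 CPM in the diabetic libraries, so control replicate 2 was the lowest of all. Snhg6, Snhg18 and Epb41l4aos differed by 0.16, 0.22 and -0.04 in DM-22. Over the 5 hosts the median in DM-22 was -0.04, and -0.08 without control replicate 2, against 0.00 and 0.01 over all tested genes. At a limma unadjusted p under 0.05, 1 was lower (Snhg20, background 3.28%). Without control replicate 2, 2 were lower (background 14.8%), Snhg20 among them. In DM+SGLT2i all 5 had a difference from C below 0, with a median of -0.33 and 0 lower (background 0.415%). Without control replicate 2 the median was -0.31 with 2 lower (background 9.14%), Snhg20 again among them. Over all tested genes these medians were -0.01 and -0.02. The counts that include Snhg20 are a description and no test of the hosts, because the level rule favored it through control replicates 8 and 9.

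Of the 31 neighbors of kidney transcription factor genes on the list used, 15 were listed in the data and 9 were among the 215 transcripts. They included Hnf4aos, which lies opposite the gene of the tubular regulator HNF4A. Hnf4aos ran at 5.00, 35.2 and 25.6 CPM in controls, 6.55 and 9.67 CPM in DM-22 and 15.2 and 7.15 CPM in DM+SGLT2i, with control replicate 2 the lowest library. Hnf4a ran at 532, 1242 and 1200 CPM, 729 and 1240 CPM, and 816 and 707 CPM (r = 0.80), so DM-22 replicate 2 matched the higher controls in the coding gene but not in the antisense transcript. Emx2os followed Emx2 at r = 0.95 and Lhx1os followed Lhx1, from which it starts 125 bases away in the opposite direction, at r = 0.91. Such values were not typical, as the median r was 0.20 over divergent pairs and 0.20 over pairs with overlapping exons. The antisense transcripts of the Hox clusters, which mark position along the body axis and the nephric lineage, gave differences in DM-22 of 0.13 (Hoxb3os), 0.08 (Hoxb5os), 0.33 (Hoxd3os1) and 0.01 (Hotairm1). Pantr1, which starts 926 bases from the POU-domain gene Pou3f3, ranged from 6.22 CPM in DM-22 replicate 2 to 24.4 CPM in DM-22 replicate 1, with 12.5, 7.37 and 7.41 CPM in controls and 6.61 and 12.1 CPM in DM+SGLT2i. Over the 9 neighbors the median difference in DM-22 was 0.01 with 0 lower at a limma unadjusted p under 0.05 (background 3.28%). Without control replicate 2 it was -0.14 with 3 lower (background 14.8%) and 0 higher (background 10.4%). In DM+SGLT2i these were -0.34 with 0 lower (background 0.415%), and -0.73 with 4 lower (background 9.14%).

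Of a list studied in diabetic kidney disease, 5 were among the 215 transcripts (Malat1, Neat1, Tug1, Pvt1 and 1700020I14Rik). All 5 had a log2 difference below 0 in DM-22, as did 49.3% of tested genes. Their median was -0.47, with 2 lower at a limma unadjusted p under 0.05 (Malat1 and Neat1, background 3.28%). In DM+SGLT2i 4 were below 0, as were 52.8% of tested genes, with a median of -0.21 and 0 lower (background 0.415%). Without control replicate 2, 4 were lower in DM-22 (background 14.8%), with a median of -0.55, and 3 in DM+SGLT2i (background 9.14%), with a median of -0.34. Pvt1, the neighbor of Myc, had 3.65, 3.66 and 3.44 CPM in controls, 2.14 and 2.80 CPM in DM-22 and 3.39 and 3.79 CPM in DM+SGLT2i, so only DM-22 lay apart (log2 difference -0.47, SE 0.20, limma unadjusted p = 0.0587). Tug1, a conserved transcript found in nucleus and cytoplasm, held 51.9, 69.7 and 68.9 CPM in controls, 51.0 and 55.3 CPM in DM-22 and 51.6 and 57.5 CPM in DM+SGLT2i, a difference of -0.24 (SE 0.17). Lncpint, induced by p53 in other settings, differed by -0.05 in DM-22. The 4 p53-linked transcripts among the 215 (Pvt1, Lncpint, Tug1 and Neat1) had a median of -0.36 in DM-22 with 1 lower (background 3.28%). Without control replicate 2, 2 were lower (background 14.8%). The 14 p53 protein-coding targets on the list used had a median of 0.38 in DM-22 with 0 higher (background 1.19%). In DM+SGLT2i the median was 0.63 with 4 higher (background 0.665%), and in both groups pooled 0.43 with 4 higher (background 0.658%). Without control replicate 2 the medians were 0.54, 0.77 and 0.57. The counts higher were then 9 (background 10.4%), 9 (background 8.73%) and 10 (background 10.4%). In each of these comparisons 2 of the 14 differences lay below 0. In control replicate 2 Cdkn1a held 72.7 CPM, against 4.63 and 5.36 CPM in the other controls. It held 52.6 and 123 CPM in DM-22 and 78.6 and 77.3 CPM in DM+SGLT2i. Both diabetic groups pooled differed from C by 2.62 (SE 0.95, limma adjusted p = 0.988), and by 3.86 (SE 0.33, adjusted p = 0.0449) without control replicate 2.

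1700020I14Rik, known as Cyrano, which carries a conserved site for the microRNA miR-7, stood at 81.4, 121 and 115 CPM in controls, 80.0 and 81.1 CPM in DM-22 and 109 and 90.6 CPM in DM+SGLT2i. Both DM-22 libraries lay just below control replicate 2, with a log2 difference of -0.37 (SE 0.20, limma adjusted p = 0.804) and of -0.55 (SE 0.13, adjusted p = 0.100) without it. The site is shown with the mature microRNA (RefSeq, GRCm38.p6), its seed (bases 2 to 8) in capitals. Positions 2932 to 2961 of the 8300-base GENCODE transcript are printed, with the match to the seed in capitals. Another match to the seed lies within positions 747 to 769 and is not shown. Matches to this seed, GTCTTCC, were found in 32 of the 215 transcripts.
mmu-miR-7a-5p: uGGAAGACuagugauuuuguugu
Cyrano site: agaacaacaaaatcaccaatGTCTTCCatt

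2900097C17Rik, the mouse Norad, is a cytoplasmic RNA that binds PUMILIO proteins at repeated short motifs. Its transcript of 4915 bases held 11 matches to TGTANATA on its own strand, the most of the 215 transcripts, followed by Gm7292 with 9, and 173 transcripts held none. Gm7292 shared 85.9% of its words with it, and reads of the pair are therefore uncertain. 2900097C17Rik stood at 31.6, 47.6 and 45.6 CPM in controls, 33.7 and 37.9 CPM in DM-22 and 54.1 and 40.1 CPM in DM+SGLT2i, so that both diabetic groups overlapped C (log2 difference of DM-22 from C -0.20, SE 0.23). Ftx, an X-linked transcript of the X inactivation center and the host of several microRNAs, was the only member on the X chromosome. It held 1.23, 4.93 and 5.96 CPM in controls, 1.10 and 1.76 CPM in DM-22 and 2.96 and 1.86 CPM in DM+SGLT2i, so that control replicates 8 and 9 were the highest libraries, as in Malat1. Outside those 2 controls it was near or under the level threshold, so its difference is a description. C130071C03Rik, the other of the 215 transcripts on the list of microRNA hosts, held 13.5, 7.77 and 8.78 CPM in controls. It held 12.8 and 11.2 CPM in DM-22 and 7.42 and 11.3 CPM in DM+SGLT2i, and the groups overlapped. Airn, the imprinted transcript antisense to Igf2r, held 6.98 and 12.8 CPM in DM-22 and 12.4 to 13.8 CPM in controls, with a difference of -0.46 (SE 0.26).

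Antisense transcripts and their coding partners were compared over pairs. For 34 divergent pairs that could be fitted, 22 changed in the same direction in DM-22 against C, with r = 0.49 across pairs. In DM+SGLT2i against C it was 19 of 34 (r = 0.36), in both diabetic groups pooled 17 (r = 0.52) and in DM+SGLT2i against DM-22 17 (r = 0.26). For 83 pairs with overlapping exons on opposite strands, the counts of the same direction in these 4 comparisons were 44, 46, 49 and 35, with r between -0.05 and 0.07. The coding gene was the more abundant gene in 32 of 34 and 72 of 83 pairs. These are correlations across genes of the same libraries, which are not independent replicates. Within a pair, the levels of transcript and coding gene over the 7 libraries correlated at a median r of 0.20 in both kinds of pair. The higher values given above for single pairs are therefore not typical. Transcripts with and without an exon overlap had median log2 differences of -0.22 (92) and -0.32 (123) in DM-22 without control replicate 2.

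Promoter windows (RefSeq, GRCm38.p6, 250 bases before to 50 after the start) were matched for 131 transcripts, 101 of them within 500 bases of the GENCODE start. Of these 101, 61.4% held at least 10 CG dinucleotides, against 43.9% of 26995 promoters of all genes. The letters TATAAA, on either strand, were found in 8.91% against 14.2%, and CACGTG, which reads the same on both strands and is the E-box letters bound by clock and MYC-family factors, in 14.9% against 7.24%. A match is a description of letters and not a bound site. CACGTG itself contains a CG, and the windows of the transcripts more often held at least 10 CG dinucleotides. The 26995 promoters were also not limited to genes expressed in these kidneys, unlike the 101. The part of CG content and of this choice of genes in the 14.9% against 7.24% was not tested. The window of Malat1, chr19:5802623-5802922 on the minus strand, is printed because Malat1 is a marker of the class, with its 10 CG dinucleotides in capitals. It held neither TATAAA nor CACGTG.
Malat1 promoter: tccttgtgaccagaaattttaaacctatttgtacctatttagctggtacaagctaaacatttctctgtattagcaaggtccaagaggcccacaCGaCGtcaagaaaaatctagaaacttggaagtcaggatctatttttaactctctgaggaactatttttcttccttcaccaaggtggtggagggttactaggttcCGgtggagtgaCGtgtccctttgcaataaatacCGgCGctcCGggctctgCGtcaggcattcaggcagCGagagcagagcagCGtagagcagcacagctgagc

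Clock genes, whose levels follow the time of day, were tabulated too. Of 12, 3 were higher in DM-22 than in C at an unadjusted p under 0.05 (background 1.19%) and 4 lower (background 3.28%), and 2 were higher (background 0.665%) and 2 lower (background 0.415%) in DM+SGLT2i. In 6 of the 12 the 4 diabetic libraries did not overlap the 3 controls, above them in Arntl, Npas2 and Nfil3 (background 1.31%) and below them in Dbp, Per2 and Nr1d2 (background 1.38%), and in the other 6, such as Nr1d1, they overlapped. Arntl and Dbp are given in full, a choice made after their values were seen. Arntl held 1.21 to 1.77 CPM in controls, 6.48 and 19.4 CPM in DM-22 and 5.07 and 8.69 CPM in DM+SGLT2i, and Dbp held 168 to 225 CPM, 83.3 and 37.6 CPM, and 106 and 66.6 CPM. All diabetic libraries lay above the controls in Arntl and below them in Dbp, and control replicate 2 lay with the other controls, unlike in Malat1. Nr1d1 held 122 to 138 CPM in controls, 128 and 57.1 CPM in DM-22 and 194 and 93.4 CPM in DM+SGLT2i. The log2 differences of DM-22 from C were 2.54 (SE 0.47) and -1.85 (SE 0.37), with a limma adjusted p of 0.804 for each. The part of sampling time in the levels of the long noncoding RNAs was not tested.

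**Figure D5:**
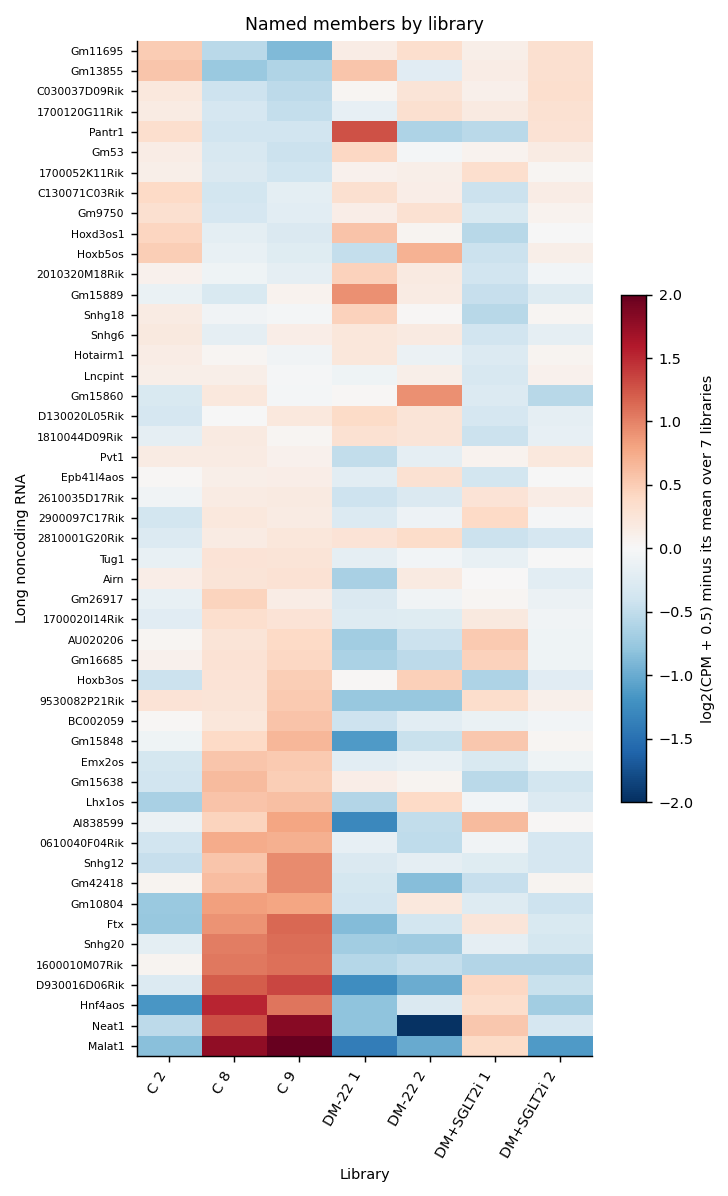
Centered log2(CPM + 0.5) of 50 named long noncoding RNAs (rows, ordered by their mean in control replicates 8 and 9) in the 7 libraries (columns), each value minus the row's mean, colors limited at 2 log2 units. The lower rows, Malat1 and Neat1 among them, are high in control replicates 8 and 9 and low in control replicate 2 and most diabetic libraries.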

How the data were processed

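Poly(A)-selected RNA of whole mouse kidney was sequenced from strand-specific libraries (NEBNext Ultra II Directional), 1 per mouse. The submitters' processing notes name bcl2fastq, FastQC, Trim Galore, STAR, edgeR and mm10; the counter, its strand setting and the versions are not given in the sources used here. The authors deposited 1 table of log2 values, which proved to be log2 of TMM-scaled CPM plus a constant of 0.0395 CPM. Removing the constant gave whole reads for 100% of values (tolerance 0.01 reads), and the smallest total of a listed gene was 10 reads. Deposited per-gene type labels chose the transcripts.

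From these values CPM were computed. Differences were tested on log2(CPM + 0.5) with limma 3.58.1 (R 4.3.3) across the 13976 genes of at least 1 CPM in at least 2 libraries, all 7 libraries sharing 1 estimate of the spread, two-sided, with Benjamini-Hochberg adjustment over all tested genes and a threshold of 0.05. The design had assumed CPM values; the deposited log2 values were converted back. The members and the gene lists were chosen with earlier results of these data known. Named transcripts were Malat1 and Neat1, the 10 highest, the 5 of smallest p per comparison and direction whose groups did not overlap at an unadjusted p under 0.05 (with all 3 controls and without control replicate 2), members of the lists, the 3 on each side of the level threshold, the 5 of widest range, and coding neighbors; others were named after their values were seen, and 1 transcript the rule chose is not reported here. Fits were run on simulated reads with a common spread for all genes. These do not mimic a control that stands apart, so they say nothing about control replicate 2. Positions, lengths and transcripts came from GENCODE M21 (GRCm38), promoters and microRNAs from RefSeq. Alternatives were each library left out, pseudocount, filter, scaling, voom, the groups in the fit and a replicate block. Tables were made with Python 3.11.15, numpy 2.4.6, pandas 2.3.3 and matplotlib 3.10.9.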

Additional observations from a re-analysis of the deposited data

How the results depend on the processing

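Leaving out each library in turn moved the counts of transcripts at an unadjusted p under 0.05 most. Against C, the count higher in DM-22 ran from 0 to 9 (0 with all libraries) and the count lower from 7 to 55 (16), the count higher in DM+SGLT2i from 0 to 7 (0) and lower from 1 to 44 (1), and for both groups pooled higher from 0 to 7 (0) and lower from 2 to 56 (9), the largest lower counts each without control replicate 2. The share of all tested genes moved too, from 0.215 to 10.4% higher and 0.980 to 14.8% lower in DM-22, from 0.114 to 8.73% and 0.0716 to 9.14% in DM+SGLT2i, and from 0.179 to 10.4% and 0.193 to 14.5% in both pooled, each largest without control replicate 2. For DM+SGLT2i against DM-22 the higher count ran from 2 to 10 (7) and the lower from 0 to 14 (7), against 0.315 to 6.86% and 0.0716 to 3.89% of tested genes. The count past the adjusted threshold was 0 to 1 in DM+SGLT2i and in both pooled against C. The class median ran from -0.25 to -0.04 in DM-22, from -0.26 to -0.10 in DM+SGLT2i, from -0.23 to -0.05 in both pooled and from -0.03 to 0.03 in DM+SGLT2i against DM-22.

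Of the other settings, a pseudocount of 2 CPM, voom and a fit of only the groups compared gave 1 higher in DM-22 (1.22, 1.19 and 0.801% of tested genes), and scaling to the median ratio 2 (1.80%). In DM+SGLT2i against C, 2 were lower on the deposited log2 values, without a filter and scaled to library totals (0.436, 0.462 and 0.443%), and 3 with only the groups compared (0.436%). Scaled to library totals, 15 were lower in both pooled (1.82%) and 3 in DM+SGLT2i against DM-22 (0.493%), where that scaling moved the median of all tested genes to 0.11 and of the transcripts to 0.09; the median ratio gave 13 (2.70%). A level threshold of 2 left 132 transcripts. Of 743 values of 29 named transcripts under alternatives, 741 kept their direction and side of the adjusted threshold, 0 reversed, and 2, of 1600010M07Rik without control replicate 2 (-1.66 and -1.63), passed it. This count says little, since with all 3 controls no limma adjusted p of a transcript was under 0.804. Most of the named transcripts had also been picked for groups without overlap. The size of a difference could move, as in Gm13855 in DM-22 against C, from 0.03 to 0.83. With a replicate block, 3 were higher (3.84% of tested genes) and 4 lower (1.14%) in DM+SGLT2i against DM-22, 1 of them among the 14 without it. Nothing in the labels says whether the shared numbers 1 and 2 mark pairs. Deviations of same-numbered diabetic libraries correlated at -0.041 over 13976 genes. With 2 libraries per group this is a single contrast, which cannot decide the question. No paired analysis was possible with C, whose numbers are shared only in replicate 2. Detection in all libraries follows largely from the level rule, and 2 or 3 mice per group limit every test. The causes of these shifts were not tested.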
